A study of Bos taurus with 3 samples.

Results

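The BCL2 family genes described here, MCL1, BCL2, BCL2L1, BCL2L2, BCL2L11, BAX, BAK1, BID, BNIP3 and BNIP3L, were taken by symbol from a table of 31903 genes, and all 10 of 10 have a row. They were counted in BFF116 cells, cultured bovine fetal fibroblasts that serve as the source of nuclei when cattle are cloned by nuclear transfer. There is 1 group, with 3 replicates of 70000 cells each, called biological in the labels' protocol, starved of serum for 48 h to synchronize the cell cycle, with no unstarved or otherwise treated cells beside them, so no level below can be tied to starvation. Nothing in the labels ties the replicates to separate cultures or animals, so part of their spread, and of what the p-values below measure, may be technical.

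The BCL2 family decides, at the outer membrane of the mitochondrion, whether a stressed cell survives or dies. Its pro-survival proteins (MCL1, BCL2L1 or BCL-xL, BCL2L2 or BCL-w, and BCL2 itself) bind and hold back the executioners BAX and BAK1, which otherwise form pores that release cytochrome c and start the caspase cascade. BH3-only proteins such as BCL2L11 (BIM) and BID carry death signals to that membrane, and the related BNIP3 and BNIP3L (NIX) act mainly as receptors for mitophagy, the removal of mitochondria by autophagy. Withdrawal of growth factors is a classical trigger of this switch in cultured cells.

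Gene counts summed to 8608350, 4842331 and 7122651 in replicates 1 to 3. All 7 of 7 fibroblast markers were measured, meaning that each library had 1 CPM or more, where CPM is a count scaled to 1000000 gene reads. They had a summed level of 57343 to 63317 CPM, while 0 of 4 epithelial markers reached it and their sum was 0.950 to 2.42 CPM. EPCAM had 0 reads. Of 3 leukocyte markers PTPRC had 0 reads, CSF1R had 1, 1 and 10 and CD68 was measured with 32, 9 and 33 reads. Of 2 endothelial markers PECAM1 was measured with 38, 10 and 10 reads, and VWF had 0, 3 and 4. None of 4 erythroid and 2 skeletal muscle markers was measured. Among them the erythroid marker AHSP had 1, 21 and 7 reads and the muscle marker MYF5 had 4, 8 and 8. Levels are CPM with 95% exact Poisson intervals, and 0 reads allow up to 3 reads, or 0.356, 0.605 and 0.422 CPM in replicates 1 to 3. Intervals and limits cover counting error only. CPM is not corrected for transcript length, which was not given, so the order of different genes below is an order of reads. Ratios between genes are ratios of reads. Length cancels in how they vary between libraries, and not in their size or sign.

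Of the 10 genes, 6 reached 1 CPM in every library, namely MCL1, BNIP3L, BCL2L2, BNIP3, BCL2L1 and BID. Over all listed genes 34.6% reached that level. The other 4 were BCL2, BCL2L11 and BAK1, which were below it in some library, and BAX, which was listed at 0. The 9 genes with a read had a median of 11.7 CPM, beside 4.96 CPM over the 18039 genes with a read in any library.

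**Figure D1:**
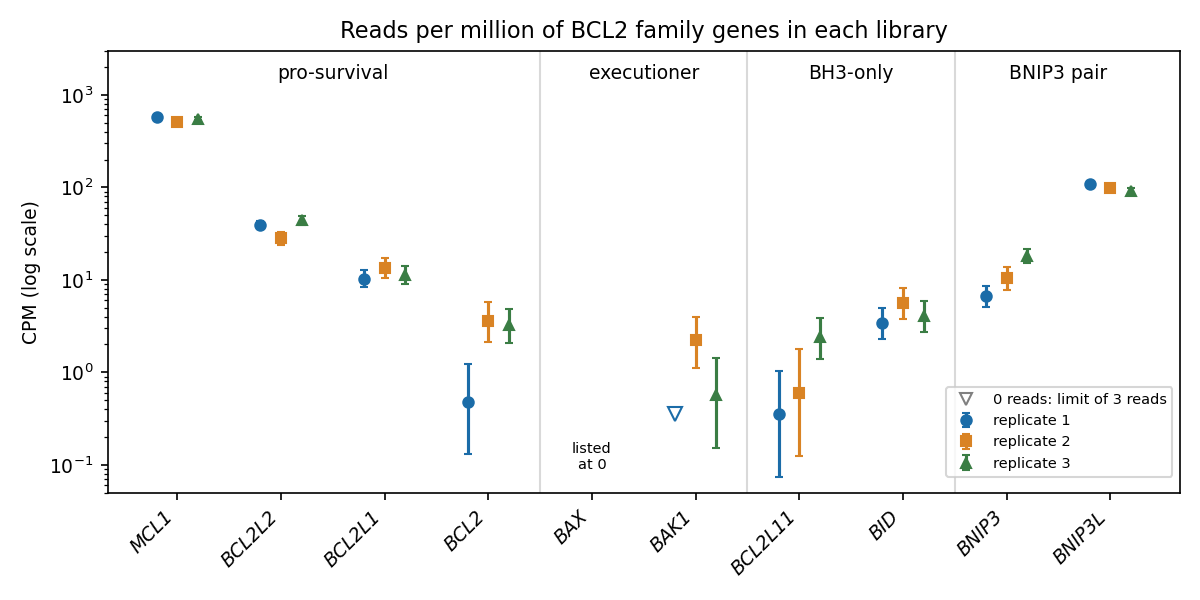
CPM of the 10 genes in each library on a log axis, grouped by role, with 95% exact Poisson intervals as bars an open triangle at the limit of 3 reads where BAK1 had 0 reads, and BAX only marked as listed at 0. MCL1 lies between 506 and 579 CPM in the 3 libraries, while BCL2, BCL2L11 and BAK1 lie near or below 1 CPM in at least 1 library each.

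The pro-survival genes were led in reads by MCL1, whose short-lived protein holds BAK1 and BCL2L11 in check. MCL1 had 579, 506 and 555 CPM in replicates 1 to 3, from 4872, 2511 and 3941 reads. Its mean was 546 ± 37.0 CPM (SD, n = 3), a coefficient of variation (CV) of 6.78%. The libraries lay close together, and their counting intervals still did not all overlap. Counting error alone would give a CV of 1.67% at this depth.

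BCL2L2, which encodes BCL-w, had 39.3, 28.0 and 43.9 CPM in replicates 1 to 3, with a mean of 37.1 ± 8.18 CPM (SD, n = 3). Replicate 2 was the low library, and its interval of 23.5 to 33.1 CPM did not reach those of the other libraries. The reference gene table places PABPN1, a gene for a poly(A)-binding protein with 657, 460 and 815 reads, over part of BCL2L2, so reads from their shared stretch may be missing or misplaced. BCL2L1, which encodes BCL-xL, had 10.3, 13.5 and 11.3 CPM, with a mean of 11.7 ± 1.63 CPM (SD, n = 3). Its 3 intervals overlapped, and its CV of 13.9% was close to the 11.6% that counting error alone would give.

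BCL2, the founding member of the family, had 4, 18 and 23 reads, or 0.475, 3.63 and 3.24 CPM in replicates 1 to 3. Replicate 1 stood apart, with an interval of 0.129 to 1.22 CPM against 2.15 to 5.73 CPM in replicate 2 and 2.05 to 4.86 CPM in replicate 3. The highest library was 7.63 times the lowest, and leaving out replicate 1 gave a mean of 3.43 CPM. BCL2 was thus above 1 CPM in the other 2 libraries. In bulk RNA, fewer cells with a transcript and less of it per cell cannot be told apart.

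MCL1 held most reads of the 4 pro-survival genes in every library. Its share was 92.0% in replicate 1 (exact 95% binomial interval 91.3 to 92.7%), 91.8% in replicate 2 (90.7 to 92.8%) and 90.5% in replicate 3 (89.6 to 91.3%), and these intervals overlapped. The value depends on the lengths of the 4 transcripts. The read ratio of MCL1 over BCL2L1 was 56.0, 37.5 and 49.3, with overlapping intervals. The other ratios of MCL1 had intervals that did not all overlap. Over BCL2L2 it was 14.7, 18.1 and 12.6, with replicate 2 (15.2 to 21.6) above replicate 3 (11.3 to 14.2). Over BCL2 it was 1218, 139.5 and 171, with replicate 1 (475 to 4472) above both others (88.1 to 236 and 114 to 271). The read ratio of BCL2L2 over BCL2L1 was 3.80 and 3.90 in replicates 1 and 3 and 2.07 in replicate 2, whose interval of 1.54 to 2.82 lay below the others.

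The ratio of BCL2L1 over BCL2 was 21.8 in replicate 1 (exact 95% binomial interval 8.20 to 81.6), 3.72 in replicate 2 (2.19 to 6.66) and 3.48 in replicate 3 (2.16 to 5.80). Replicate 1 lay above the other 2 libraries. Between the highest and the lowest library, CPM of BCL2L1 differed 1.31-fold and that of BCL2 7.63-fold.

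**Figure D2:**
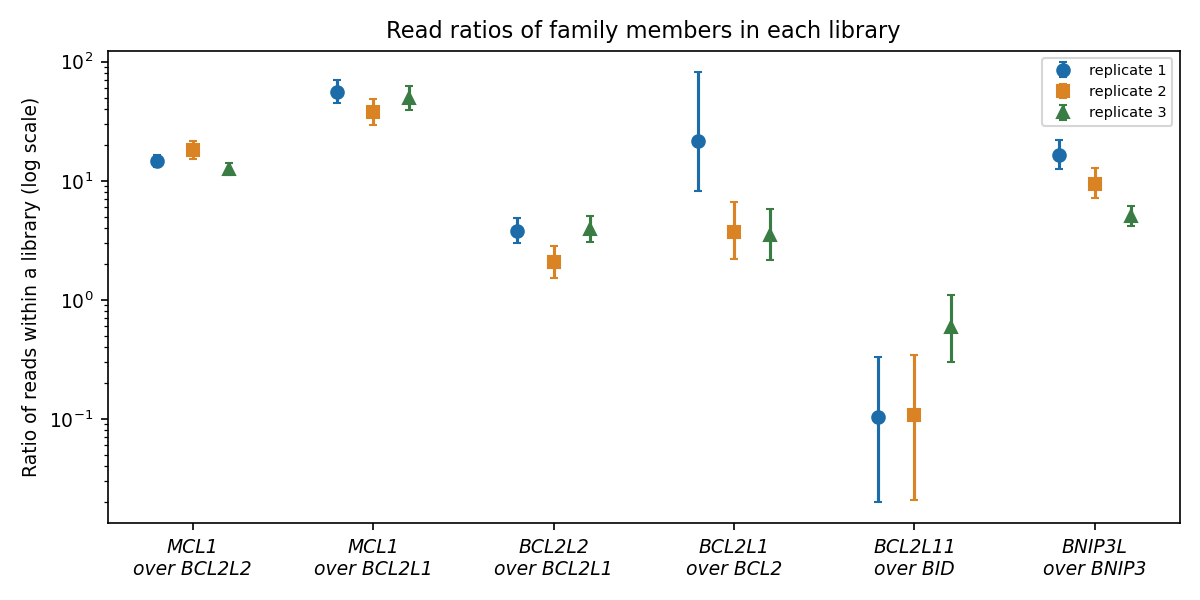
Ratio of the reads of 2 genes within each library on a log axis, with exact 95% binomial intervals as bars. The ratio of MCL1 over BCL2L1 stays between 37.5 and 56.0, whereas that of BNIP3L over BNIP3 is 16.5, 9.48 and 5.06 in replicates 1 to 3.

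The executioners gave few or no reads. BAK1, which sits in the outer mitochondrial membrane of healthy cells, had 0, 11 and 4 reads in replicates 1 to 3, or 0, 2.22 and 0.563 CPM. Replicate 1 allows up to 0.356 CPM, which lies below the interval of replicate 2 (1.11 to 3.97 CPM) and within that of replicate 3 (0.153 to 1.44 CPM). The read ratio of BAK1 over BCL2L1, a pro-survival gene whose protein restrains it, was at most 0.0345 in replicate 1 at the limit of 3 reads, 0.164 in replicate 2 and 0.05 in replicate 3. BOK, a further executioner, had 4, 1 and 12 reads.

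BAX, which moves from the cytosol to mitochondria during apoptosis, was listed at 0 reads in every library. In the order of protein-coding genes of the reference table, BAX opens a run of 7 genes with at most 1 read in any library. The run goes on through FTL, GYS1, RUVBL2, LHB, NTF4 and KCNA7. FTL had 1, 0 and 0 reads, although it encodes the ferritin light chain, an abundant protein of most cells, and RUVBL2, which encodes a helicase that most cells need, had 0. Genes on either side had reads, with 645, 450 and 716 for NUCB1, 76, 33 and 46 for DHDH, and 146, 108 and 229 for SNRNP70. Of the 10 nearest genes, 5 on each side, 5 had 10 or more reads in every library.

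The level of BAX is therefore not known from this table, since reads may not have been assignable to that stretch, and the limit of 3 reads does not apply to it. The cause of the empty run was not tested. In the reference table BAX also overlaps TULP2, which had 22, 13 and 13 reads. Other apoptosis genes at 0 reads did not stand in such a run. BCL2A1, BCL2L10, BIK, BIRC7 and FASLG each stood alone between neighbours with more than 1 read in some library, and HRK stood beside 1 other such gene, RNFT2. Of the 10 genes nearest to BIRC7, 4 had 10 or more reads in every library, and of those nearest to HRK 6 had. The rest had 7 or 8 such neighbours. That count, 5 for BAX, does not by itself set BAX apart.

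**Figure D3:**
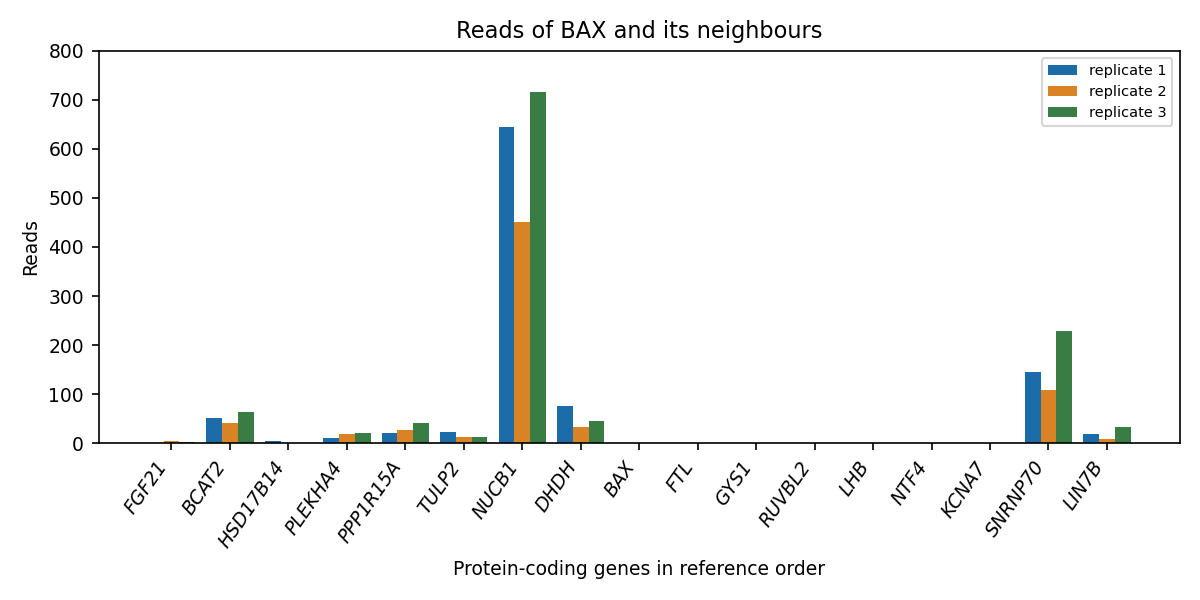
Reads of BAX and of the 8 protein-coding genes on each side in reference order, with 1 bar per library. The bars are at or near 0 from BAX through KCNA7, between NUCB1 with 450 to 716 reads and SNRNP70 with 108 to 229 reads.

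Among the BH3-only genes, BID, whose protein links death receptors to mitochondria after cleavage by caspase-8, had 29, 28 and 29 reads. These were 3.44, 5.64 and 4.08 CPM in replicates 1 to 3, with a mean of 4.39 ± 1.13 CPM (SD, n = 3). The 3 intervals overlapped, and the CV of 25.8% compares with 19.1% from counting error alone. BCL2L11, which encodes BIM and is known to be induced when growth factors are withdrawn, had 3, 3 and 17 reads, or 0.356, 0.605 and 2.39 CPM. Replicate 3 was the high library. Its interval of 1.39 to 3.83 CPM lay above the 0.0735 to 1.04 CPM of replicate 1 and overlapped the 0.125 to 1.77 CPM of replicate 2. In the reference table BCL2L11 overlaps ACOXL, which had 0 reads. The read ratio of BCL2L11 over BID was 0.103, 0.107 and 0.586 in the 3 libraries, with wide intervals that overlapped. Set against a pro-survival gene that BIM binds, the read ratio of BCL2L11 over BCL2L1 was 0.0345, 0.0448 and 0.212. The exact 95% binomial interval of replicate 3, 0.118 to 0.362, lay above the 0.00698 to 0.104 of replicate 1 and overlapped the 0.00901 to 0.137 of replicate 2. Over MCL1 the ratio was 0.000616, 0.00119 and 0.00431, again highest in replicate 3.

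BNIP3L and BNIP3 encode mitophagy receptors of similar structure, and BNIP3 is a known target of hypoxia-inducible factor. BNIP3L had 109.6, 99.3 and 91.9 CPM in replicates 1 to 3, with a mean of 100.3 ± 8.91 CPM (SD, n = 3) and a CV of 8.89%. BNIP3 had 6.65, 10.5 and 18.2 CPM, with a mean of 11.8 ± 5.86 CPM (SD, n = 3) and a CV of 49.8%, where counting error alone would give 11.5%. BNIP3 was high in replicate 3, whose interval of 15.2 to 21.6 CPM lay above both others. BNIP3L was lowest in replicate 3, at an interval of 85.0 to 99.2 CPM. That interval overlapped the 90.8 to 108.5 CPM of replicate 2 and lay below the 102.7 to 116.9 CPM of replicate 1.

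The read ratio of BNIP3L over BNIP3 was 16.5 in replicate 1 (exact 95% binomial interval 12.6 to 22.0), 9.48 in replicate 2 (7.11 to 12.9) and 5.06 in replicate 3 (4.18 to 6.16). The interval of replicate 3 lay below both others, so the balance of the pair differed between libraries by more than counting error. HIF1A, the gene of the oxygen-regulated subunit of hypoxia-inducible factor 1, had 413, 287 and 223 CPM. Its part in the spread of BNIP3 was not tested.

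Whether any of these genes varied more between replicates than others of similar level was tested with edgeR across 10434 genes with 10 or more reads in every library. Of the 6 family genes with enough reads 0 were called, and over all genes tested 2, or 0.0192%, were called at an adjusted p under 0.05. At an unadjusted p under 0.05, the same test gave 0 of the 6 and 547 of all genes. BNIP3 came nearest (edgeR, unadjusted p = 0.102, adjusted p = 1.00), and 9.51% of the genes tested had a larger statistic. MCL1, BNIP3L and BCL2L1 lay at the other end, with larger statistics in 86.9, 83.1 and 79.8% of the genes. For BCL2L2 and BID these shares were 42.4 and 60.4%. Without replicate 1 the count over all genes was 6 and without replicate 2 or replicate 3 it was 0, while the family genes stayed at 0 in each case and with DESeq2's dispersion trend. With 3 libraries, a gene that misses the threshold is not shown to be steady. The highest library of BNIP3 was 2.73 times its lowest.

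**Figure D4:**
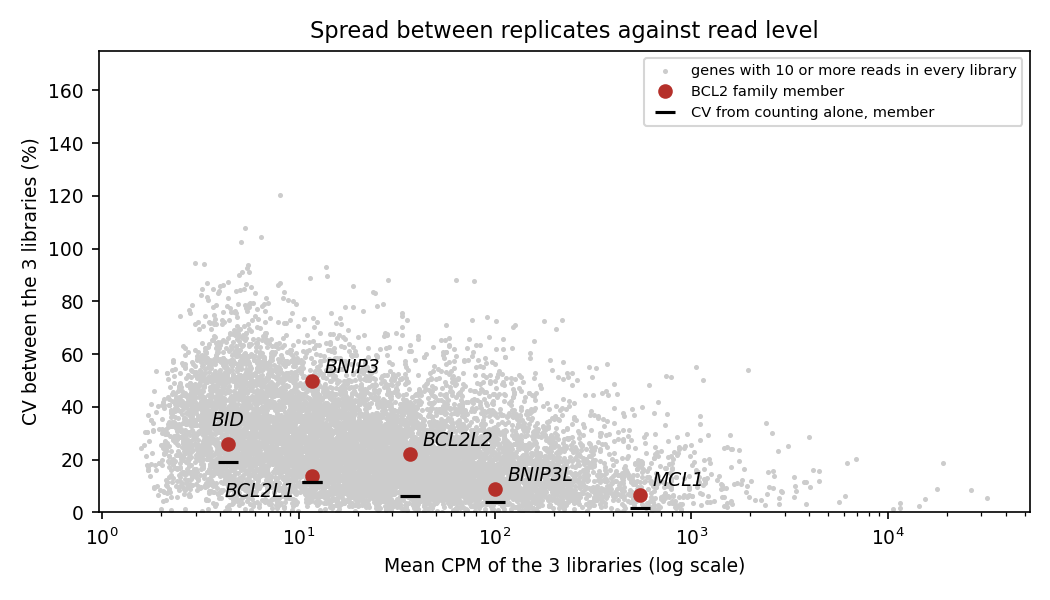
CV between the 3 libraries against mean CPM on a log axis for the 10434 genes tested (grey), with the 6 family genes in red and black dashes at the CV that counting error alone would give them. BNIP3 at 49.8% stands high for its level, and BCL2L1 at a like read level has 13.9%.

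With the limit set at a mean count of 10 or more, 7 family genes entered, BCL2 among them, and 0 were called. BAK1 and BCL2L11 could be placed only with the filter removed. BAK1, BCL2 and BCL2L11 were not called there (edgeR, 18039 genes with a read, unadjusted p = 0.138, 0.228 and 0.212, each with an adjusted p of 0.993). Counting intervals of the highest and the lowest library did not overlap in 7 of the 9 genes with a read, BCL2L1 and BID being the exceptions, while the share was 44.8% over all genes with a read and 59.6% over those with 15 or more reads in all, a limit set at the reads of BAK1 after the first share was seen. A further pattern was looked for after the values were seen. Each of the 6 genes with 15 to 237 reads in all libraries together (BAK1, BCL2L11, BCL2, BID, BCL2L1 and BNIP3) was lowest in replicate 1. Over all genes in that range of reads, 40.0% were lowest there, and of 15 other apoptosis and mitophagy genes in the range 7 were. The range was set by these 6 of the 9 genes with a read. Of the 3 with more reads, MCL1 and BCL2L2 were lowest in replicate 2 and BNIP3L in replicate 3.

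In the order of mean CPM, MCL1 came first, followed by BNIP3L, BCL2L2, BNIP3, BCL2L1, BID, BCL2, BCL2L11 and BAK1. Of the 8 pairs of neighbours in that order, 6 kept it in every library. The order was set by the means of these same libraries, which favours its being kept. Counting error did not separate all pairs that kept it. The exact 95% binomial interval of BID over BCL2 was 0.831 to 2.99 in replicate 2 and 0.704 to 2.28 in replicate 3. That of BCL2 over BCL2L11 was 0.226 to 9.10 in replicate 1. BNIP3 and BCL2L1 changed places, with a log2 ratio of CPM + 0.5 of -0.095 ± 0.67 (BNIP3 over BCL2L1, SD, n = 3), and so did BCL2L11 and BAK1, at 0.31 ± 1.43. The exact two-sided sign-flip permutation test of 3 libraries cannot give a p below 0.25, and of the 19 pairs computed the smallest adjusted value was 0.28, so no pair passed. This order is not one of transcript numbers.

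The rest of the family and its pathway were read from 12 further lists with 82 genes in the table, of which 66 reached 1 CPM in every library (34.6% over all listed genes). Within a list, genes are named by their reads, which carry their lengths. None of the 65 genes tested there was called more variable than the trend by edgeR. At an unadjusted p under 0.05, the same test gave 1 of the 65, BNIP2, beside 547 of all 10434 genes tested.

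The other pro-survival genes, BCL2A1 and BCL2L10, had 0 reads throughout, a limit of 0.605 CPM in replicate 2 if reads could be assigned to them. Of the 6 other BH3-only genes 3 were measured in every library. BAD, which growth factor signalling keeps phosphorylated and inactive, had 5.94, 10.1 and 11.5 CPM. BBC3, or PUMA, had 2.73, 5.04 and 6.05 CPM, and PMAIP1 or NOXA, which binds MCL1, had 3.33, 2.42 and 1.41 CPM. BMF had 1, 6 and 9 reads, and BIK and HRK had 0.

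Among genes named after the family, 4 of 6 were measured. BNIP2 had 124, 97.3 and 39.5 CPM (edgeR, unadjusted p = 0.0128, adjusted p = 0.629). Replicate 3 was the low library, and without it the mean was 110.6 CPM, against 86.9 CPM with it. BCL2L13, a further mitophagy receptor, averaged 22.6 ± 7.52 CPM, BCL2L12 13.6 ± 3.04 CPM and BNIP1 5.13 ± 0.178 CPM (SD, n = 3 each). BNIPL had 2, 0 and 3 reads and BCL2L15 had 0, 0 and 1.

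Further down the mitochondrial pathway, of 12 genes for mitochondrial channels, released proteins and mitochondrial shape 11 were measured, led by the outer membrane channels VDAC2 (367 ± 20.2 CPM) and VDAC1 (240.5 ± 15.9 CPM), the fission gene DNM1L (142 ± 41.0 CPM) and the fusion gene OPA1 (123 ± 47.6 CPM), each with n = 3. OPA1 had 157, 143 and 68.4 CPM in replicates 1 to 3. ENDOG was the exception with 1, 2 and 2 reads. All 7 of 7 genes of the apoptosome and caspases were measured, among them APAF1 (36.1 ± 6.82 CPM), CASP6 (23.3 ± 3.63 CPM) and CASP8 (21.4 ± 3.43 CPM). APAF1 is the scaffold that cytochrome c activates, CASP6 is an executioner caspase, and CASP8 acts below death receptors.

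Of 6 inhibitor of apoptosis genes 5 were measured, with BIRC6 at 218 ± 52.8 CPM, BIRC3 at 20.9 ± 9.17 CPM, BIRC5 at 18.6 ± 6.79 CPM, BIRC2 at 11.0 ± 4.14 CPM and NAIP at 4.65 ± 2.38 CPM (SD, n = 3 each). BIRC7 had 0 reads. BIRC6 encodes a very large ubiquitin ligase that restrains caspases, and BIRC5 encodes survivin, which also serves in mitosis. Of 10 death receptor genes 7 were measured, led by TNFRSF10D, in human a decoy receptor (212 ± 23.2 CPM), the tumour necrosis factor receptor TNFRSF1A (69.7 ± 25.1 CPM), FAS (35.8 ± 0.386 CPM) and CFLAR, which restrains CASP8 (19.6 ± 4.91 CPM). The ligand genes were at or near 0, with 0 reads of FASLG and 0, 1 and 0 of TNFSF10, and the adaptor TRADD had 6, 6 and 7.

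Genes that set the stability of the MCL1 protein were measured in 6 of 6 cases. HUWE1, whose ubiquitin ligase marks MCL1 for degradation, had 548, 491 and 505 CPM in replicates 1 to 3, with a mean of 515 ± 29.7 CPM (SD, n = 3). The others, which encode kinases and ubiquitin enzymes, were GSK3B (65.6 ± 5.01 CPM), BTRC (55.6 ± 7.50 CPM), GSK3A (12.8 ± 4.64 CPM), FBXW7 (8.56 ± 2.47 CPM) and UBE2S (3.07 ± 1.78 CPM). Of 13 genes of mitophagy 11 were measured. GABARAP (263.5 ± 30.9 CPM) and MAP1LC3B (200.4 ± 36.0 CPM) encode proteins of the autophagosome that BNIP3 and BNIP3L bind, and RHEB (214 ± 13.1 CPM) and the cargo receptor SQSTM1 (140.1 ± 26.7 CPM) were the others among the 4 highest. FKBP8, which anchors BCL2 at mitochondria, had 7, 14 and 51 reads, and its mean of 3.61 CPM was 1.83 CPM without replicate 3.

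Of 7 genes for transcription factors known to act on the family 6 were measured. Besides HIF1A these included FOXO1 (112 ± 19.4 CPM) and FOXO3 (17.0 ± 2.09 CPM), which can induce BCL2L11 when growth factor signals fall, DDIT3 (90.9 ± 9.63 CPM) and JUN (56.5 ± 15.5 CPM). E2F1 had 0, 1 and 3 reads. All 6 of 6 BAG genes, named for the BCL2-binding co-chaperone BAG1, were measured, with BAG6 (86.6 ± 12.9 CPM), BAG1 (72.1 ± 14.0 CPM), BAG3 (38.9 ± 8.93 CPM) and BAG2 (17.3 ± 4.39 CPM) highest, each with n = 3.

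**Figure D5:**
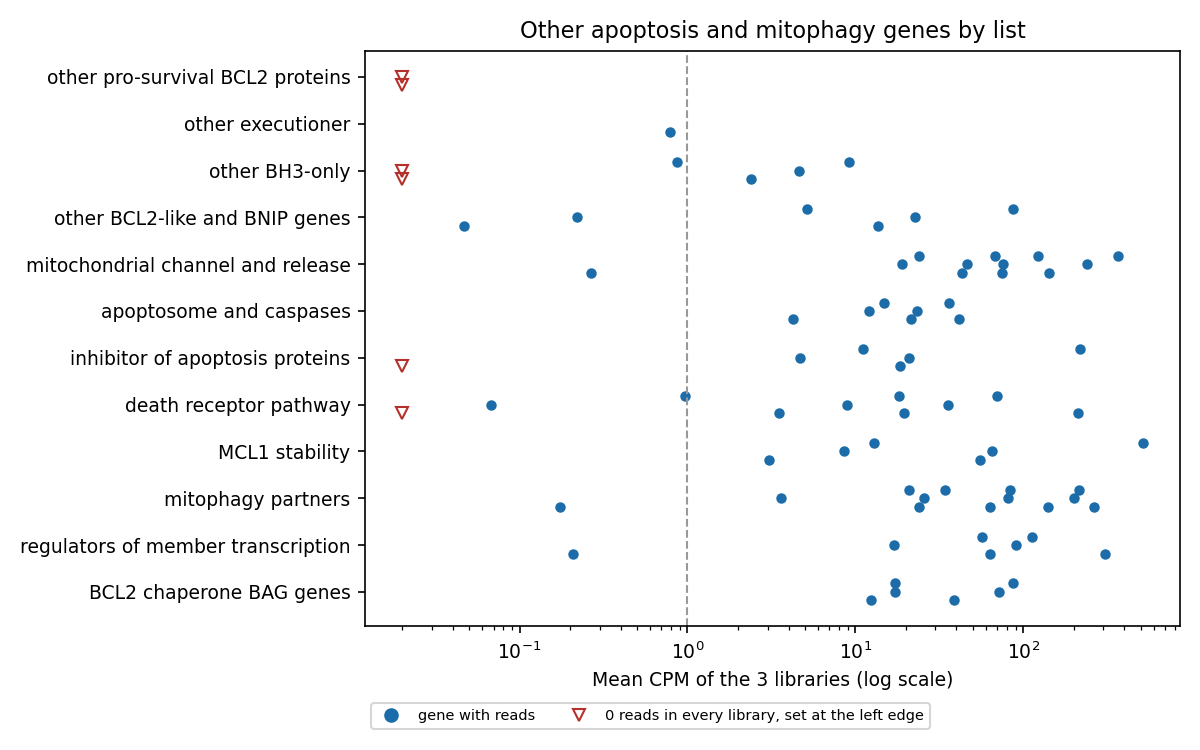
Mean CPM of the 3 libraries on a log axis for 82 further apoptosis and mitophagy genes, 1 row of points per list, with a dashed line at 1 CPM and open triangles for genes with 0 reads. The 7 caspase and apoptosome genes all lie right of the line, while the 2 other pro-survival genes, BCL2A1 and BCL2L10, are at 0 reads.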

How the data were processed

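RNA of serum-starved BFF116 cells was amplified as cDNA with NuGEN's isothermal single-primer method and sequenced as single reads, per the labels' protocols. The authors deposited raw counts of reads, whole numbers for each gene, in 1 column per replicate, and 0 columns belong to other samples. The submitters' processing notes name HTSeq 0.6.1 and TopHat2 2.0.10, and bcl2fastq 2.18.0.12. Build, annotation, counting mode and strandedness were not given in the sources used here, so reads of overlapping or antisense genes cannot be told apart. The 5 summary rows that name no gene entered neither library sizes nor tests. Reads in no gene were 58.9 to 62.0% of each total, reads with several alignments 7.52 to 7.99%, and reads over several genes 0.235 to 0.253%. Genes with near-identical copies can therefore be undercounted.

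CPM was computed with edgeR 4.0.16 in R 4.3.3, with TMM factors of 0.978, 1.02 and 0.998. Spread was tested with an intercept-only edgeR fit, whose trended dispersion gave a negative binomial Pearson statistic per gene, compared with chi-square at 2 degrees of freedom and Benjamini-Hochberg adjustment over 10434 genes. The planned correction for length could not be made, since no exonic or coding lengths were given, and CPM was used in its place. The common biological CV was 0.273. Gene order and overlaps come from the gene positions in RefSeq's table of ARS-UCD2.0, in which all 10 symbols matched. The build of the counts is unknown, so neighbours and overlaps may differ in it.

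The members and lists were chosen with earlier results of these data known. All 10 members are named. From each list the 4 genes with the highest mean CPM were named, with all below or all above 1 CPM in every library where these were 6 or fewer, and any called variable. No gene was named for a like pattern, since 3 libraries of 1 group give none. Which list genes are given per library, and the overlapping genes and the neighbours named, were chosen after their values were seen. Listed genes without a row, such as BCL2L14, CASP10, XIAP and USP9X, were not analysed here. A few list genes that enter the counts are not reported by name here. Alternatives were other size factors, pseudocounts, level limits, dispersion estimates, DESeq2 1.42.0 and leaving out each replicate.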

Additional observations from a re-analysis of the deposited data

How the results depend on the processing

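Counts of family genes at 1 CPM in every library were 6 under every other size factor, level limit and count limit tried, and 6 to 7 when a replicate was left out, with BCL2 added without replicate 1. Of the other apoptosis and mitophagy genes 64 to 68 reached the limit under all alternatives, against 66. The 11 read ratios, 8 within a role and 3 across roles (BCL2L11 over MCL1 and over BCL2L1, and BAK1 over BCL2L1), kept their sign in all libraries under each alternative, and 6 to 7 of 8 neighbours kept their order. Pseudocounts of 0.1 and 1 changed no count. The number of genes called more variable than the trend was 2 under every alternative with 3 libraries and ranged from 0 to 6 when a replicate was left out, where fewer libraries entered. Over these alternatives the smallest adjusted p of a family gene was 0.762, for BNIP3 with a common dispersion. The 6 genes lowest in replicate 1 stayed 6 under both other size factors, an alternative chosen after seeing the data. No paired analysis was possible because the series has 1 group. Levels per kilobase were not run, as no lengths were given. Depth limits BCL2, BCL2L11 and BAK1, each with at most 23 reads in a library.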
